A study of Mus musculus with 8 samples.

Results

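The cytotoxic granule genes of mouse lymphocytes were followed across cells sorted from the bone marrow of TOX knockout and wild-type mice. They are 9 genes chosen by name, namely the granzymes Gzma, Gzmb, Gzmc and Gzmk, the pore former Prf1, and Nkg7, Ctsw, Srgn and Ccl5, out of 23846 gene rows in the deposited table, and each symbol had 1 row there. The study's title concerns the need for TOX in forming a progenitor of innate lymphoid cells (ILCs). TOX is an HMG-box nuclear protein of developing lymphocytes. RNA was sequenced from 4 TOX knockout and 4 wild-type samples, after low-input cDNA synthesis, on an Ion Proton instrument. The labels give the genotype and bone marrow as the source. They do not name the sorted population, the knockout allele, strain, age or sex, or say whether each sample is a separate animal, so a p-value here rests on differences between these samples, and some of those may be technical. Libraries are called here by the number in their column name, 10, 11, 16 or 29, which occurs once in each genotype. The column names also hold a code of unstated meaning, the same in all wild-type columns and different in all knockout columns. Whatever it stands for cannot be told apart from genotype. Knockout library 11 has a code that no other column has.

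Killer lymphocytes carry lytic granules in which granzymes, a family of serine proteases, are stored on the proteoglycan serglycin. On contact with a target cell the granules fuse with the cell membrane, perforin opens the way into the target, and the granzymes start cell death there. NK cells and cytotoxic T cells are the best known bearers of this machinery, and several of its parts are also made by mast cells, neutrophils or platelets. ILC progenitors are precursors of NK cells and of the helper-like ILC groups in current schemes of bone marrow lymphopoiesis.

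The 9 genes lie on 6 chromosomes of mouse build mm10, with positions counted from 1 and strands and gene models from GENCODE vM21. Gzma (chr13:113093827-113100981) and Gzmk (chr13:113171874-113180897) lie close together on the minus strand of chromosome 13. Gzmb (chr14:56258858-56262260) and Gzmc (chr14:56231401-56234656) lie close together in the granzyme cluster on the minus strand of chromosome 14. Prf1 (chr10:61297836-61304263, plus strand) and Srgn (chr10:62494428-62507755, minus strand) share chromosome 10. Nkg7 lies at chr7:43437138-43438246 on the plus strand, Ctsw at chr19:5465240-5468498 and Ccl5 at chr11:83525779-83530518, both on the minus strand. The coding sequences of Gzmb and Gzmc were 75.6% identical, with a longest shared run of 49 bases, so the authors' quantification could have divided reads between the pair. Gzma and Gzmk were 54.8% identical with a longest shared run of 13 bases.

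Promoter windows from RefSeq (GRCm38.p6, 250 bases before to 50 after the transcription start) are shown for a pair of granzymes and for a pair of the genes that were abundant in every library. Capitals mark matches on either strand to GGTGTGA, a core that T-box factors bind, or to TGTGGT, a core that RUNX factors bind. The windows are chr13:113100932-113101231 (minus strand) for Gzma, chr14:56262285-56262584 (minus) for Gzmb, chr7:43436888-43437187 (plus) for Nkg7, and chr10:62507708-62508007 (minus) for the Srgn start nearest to that of the deposited table.
Gzma: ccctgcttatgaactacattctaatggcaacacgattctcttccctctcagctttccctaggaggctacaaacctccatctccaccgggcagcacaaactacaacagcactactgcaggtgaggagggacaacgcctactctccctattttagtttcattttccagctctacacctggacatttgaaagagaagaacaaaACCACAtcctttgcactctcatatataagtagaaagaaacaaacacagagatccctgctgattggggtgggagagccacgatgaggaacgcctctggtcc
Gzmb: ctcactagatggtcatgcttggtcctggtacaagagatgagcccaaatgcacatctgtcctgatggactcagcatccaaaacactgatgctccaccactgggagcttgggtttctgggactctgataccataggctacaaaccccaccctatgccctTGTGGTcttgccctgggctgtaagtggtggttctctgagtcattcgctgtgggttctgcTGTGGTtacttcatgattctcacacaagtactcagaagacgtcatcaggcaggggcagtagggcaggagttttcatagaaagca
Nkg7: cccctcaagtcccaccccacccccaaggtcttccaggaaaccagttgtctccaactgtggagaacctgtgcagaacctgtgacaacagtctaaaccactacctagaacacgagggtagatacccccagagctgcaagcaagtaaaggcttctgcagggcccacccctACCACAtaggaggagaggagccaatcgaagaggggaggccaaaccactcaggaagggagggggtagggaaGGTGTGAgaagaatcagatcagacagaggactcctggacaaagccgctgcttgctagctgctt
Srgn: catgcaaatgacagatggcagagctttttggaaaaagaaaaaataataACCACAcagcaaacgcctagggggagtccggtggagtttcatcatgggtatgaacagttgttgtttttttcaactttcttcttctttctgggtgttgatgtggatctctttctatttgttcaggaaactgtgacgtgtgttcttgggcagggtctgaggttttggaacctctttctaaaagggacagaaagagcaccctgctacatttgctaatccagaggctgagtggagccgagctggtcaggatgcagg
Nkg7 held the T-box core 13 bases and the RUNX core 83 bases before its start. Gzma held the RUNX core 50 bases before its start, Gzmb 93 and 34 bases before, and Srgn 202 bases before. RefSeq windows were matched for 7 of the 9 genes, 8 windows in all, and the RUNX core stood in 6 of them, against 16.8% of 32817 windows genome-wide. The T-box core stood in 2 of the 8, those of Nkg7 and Gzmk, against 3.98% of all windows. CCGGAAG, a core that ETS factors bind, stood in 1 of the 8, the upstream Srgn start not shown, against 8.86%. The 3 cores do not overlap in these windows, and a match describes the letters only.

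Tox had FPKM values (fragments scaled to gene length and to mapped reads) of 2.34, 0.107, 0.928 and 0.242 in knockout libraries 10, 11, 16 and 29, against 107, 119, 123 and 92.4 in the wild-type libraries of the same numbers, so every library matched its label. Knockout library 16 stood apart, with 7328 genes at an FPKM of at least 1 against 9263 to 10600 in the other 7 libraries, and globin transcripts made up 44.2% of summed FPKM in knockout library 29 against 2.67 to 19.9% elsewhere. With values as deposited the median log2 fold change over 10693 tested genes was -0.52, and 21 genes rose and 184 fell. With median-ratio scaling between libraries the median was -0.04, and 93 rose and 119 fell. Fold changes below are differences of mean log2(FPKM + 1), knockout over wild type, so changes of genes near 0 are understated. Both scalings are given where they matter. Markers of ILC progenitors, such as Pdcd1, Rora, Zbtb16 and Gata3, fell in 7 of 7 cases at either scaling, with a summed FPKM of 109 to 439 in knockout and 1898 to 2729 in wild type.

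In wild-type marrow cells the granule genes split into an abundant and a scarce set. Ccl5, Srgn, Nkg7 and Ctsw had mean levels of 1515 ± 561, 525 ± 54.6, 491 ± 64.3 and 94.4 ± 18.5 FPKM (SD, n = 4 each), and the first 3 stood at percentile 99.3 or above among tested genes in each wild-type library. Srgn and Nkg7 had overlapping ranges in wild type, 453 to 577 and 418 to 572, with Srgn the higher in each of the 4 libraries. The granzymes and perforin were low beside them, with Gzmb at 15.6 ± 23.3, Gzma at 8.02 ± 8.17 and Prf1 at 0.168 ± 0.261 FPKM, and Gzmc was at 0 in every wild-type library. Together Ccl5, Nkg7 and Srgn made up 94.1 to 96.0% of the summed FPKM of the 9 genes in wild type.

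In the knockout libraries granzymes held a larger share of the 9-gene sum, while the sum itself overlapped between genotypes. The summed FPKM of the 9 genes was 2768, 1838, 464 and 658 in knockout libraries 10, 11, 16 and 29, against 2091, 3607, 2216 and 2681 in wild-type libraries 10, 11, 16 and 29. Knockout library 10 lay within the wild-type range, also with median-ratio scaling, and the other 3 lay below it at either scaling. The 9 genes made up 0.564, 0.537, 0.223 and 0.104% of all summed FPKM in knockout libraries 10, 11, 16 and 29, against 0.705, 1.15, 0.606 and 0.778% in the wild-type libraries of those numbers. Every knockout share of this total lay below every wild-type share, but with globin left out of the total, an alternative chosen after seeing the data, knockout library 10 held 0.704%, above the 0.684% of wild-type library 16. The 4 granzymes held 14.5, 16.7, 1.58 and 5.69% of the 9-gene sum in the knockout libraries, against 1.02, 1.49, 0.865 and 0.000787% in wild type, so these groups did not overlap either, though knockout library 16 lay just above wild-type library 11. The granzyme sum itself did overlap, at 402, 307, 7.32 and 37.4 FPKM in knockout libraries 10, 11, 16 and 29. In wild-type libraries 10, 11, 16 and 29 it was 21.3, 53.9, 19.2 and 0.0211. Ccl5 was the largest part of the sum in every wild-type library and in knockout library 10, and Srgn was the largest in knockout libraries 11, 16 and 29. These shares are descriptions without a test, since the sum follows a few abundant genes. In bulk RNA of this kind, fewer cells of a type and less RNA per cell cannot be told apart.

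**Figure D1:**
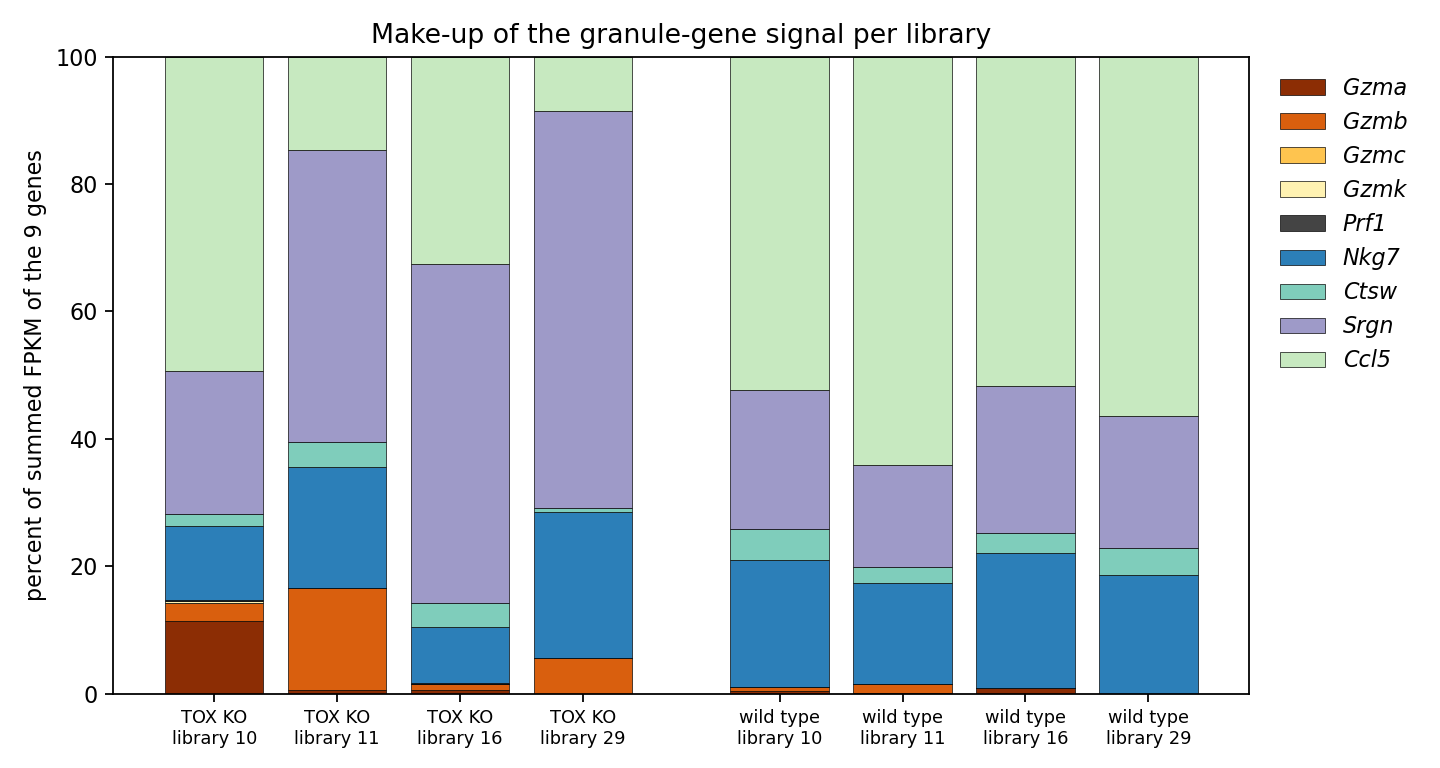
Stacked bars give the percent of the summed FPKM of the 9 granule genes held by each gene (y axis, percent) in each TOX knockout and wild-type library (x axis). Granzymes take 14.5% and 16.7% in knockout libraries 10 and 11, against at most 1.49% in any wild-type library.

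None of the 6 tested granule genes passed the test over all genes. Of these 6, whose FPKM averaged 1 or more and which were tested with limma and Benjamini-Hochberg adjustment, 0 were lower and 0 higher at an adjusted p under 0.05, where 1.72% of all genes tested were called lower and 0.196% higher. With median-ratio scaling 0 of the 6 were called, where 1.11% of all genes were lower and 0.870% higher. At an unadjusted p under 0.05, 3 were lower (Ccl5, Nkg7 and Ctsw) and 1 was higher (Gzmb), where 17.5% of all genes were lower and 3.11% higher at that level. Gzmc, Gzmk and Prf1 stayed under the filter and have values without a test. The median log2 fold change of the 6 was -0.85, beside -0.52 for all genes, and -0.24 beside -0.04 with median-ratio scaling.

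**Figure D2:**
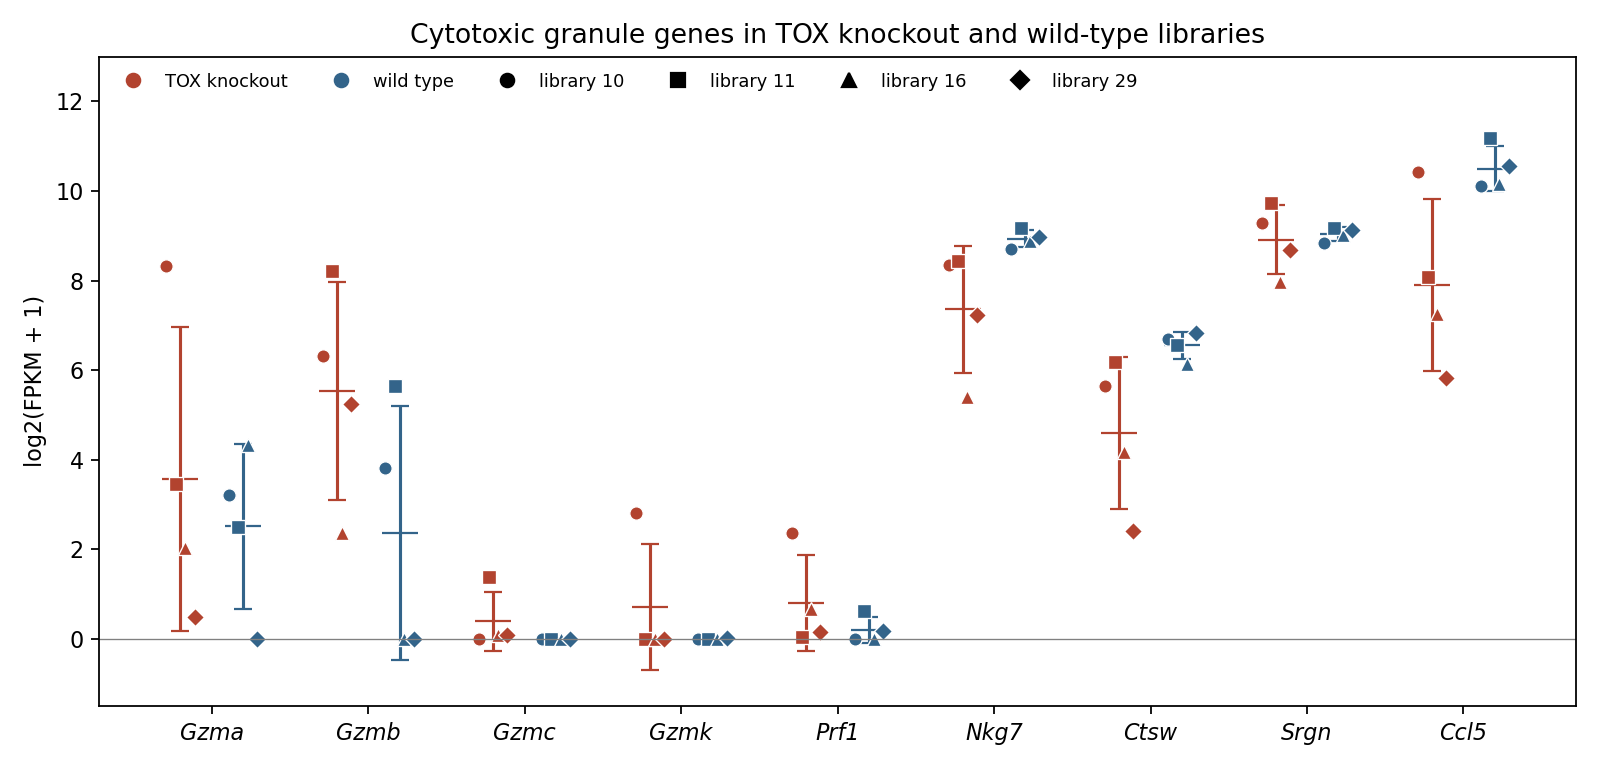
Each point is a library, with log2(FPKM + 1) on the y axis and the 9 granule genes on the x axis, TOX knockout in red left of wild type in blue, and bars at the mean ± SD of 4 libraries. Nkg7 is the gene whose groups do not overlap, and Gzma and Gzmb spread widely within a genotype.

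Among the granzymes, Gzmb, which cleaves after aspartate and activates caspases, had the largest positive difference. Its FPKM was 78.0, 295, 4.16 and 37.0 in knockout libraries 10, 11, 16 and 29, against 13.1, 49.3, 0 and 0 in wild-type libraries 10, 11, 16 and 29. Knockout library 16 lay below wild-type libraries 10 and 11, so the groups overlapped. The log2 fold change was 3.17 (SE 1.32, 95% interval 0.31 to 6.02), and it did not pass (limma adjusted p = 0.213). With median-ratio scaling it was 3.57 (adjusted p = 0.166), and without knockout libraries 16 and 29 it was 4.89 (SE 1.45, adjusted p = 0.130). Placed among all tested genes of its own library, Gzmb stood at percentiles 93.8, 98.8, 59.5 and 90.8 in knockout, and at 64.4, 90.4, 0 and 0 in wild type.

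Gzma, a granzyme that cleaves after basic residues, was high in a single library. Its FPKM was 317, 9.92, 3.10 and 0.392 in knockout libraries 10, 11, 16 and 29, against 8.27, 4.63, 19.2 and 0 in wild-type libraries 10, 11, 16 and 29. Knockout library 10 exceeded the highest wild-type value many times over, and the other knockout values lay within the wild-type range. The log2 fold change was 1.06 (SE 1.36, 95% interval -1.89 to 4.01, limma adjusted p = 0.624), and without knockout library 10 it turned to -0.52 (adjusted p = 0.705). Without knockout libraries 16 and 29 it was 3.37 (SE 1.34, adjusted p = 0.260), and with array weights 3.27 (SE 1.19, adjusted p = 0.115).

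Gzmk, a relative of Gzma from the same stretch of chromosome 13, was found at 6.03 FPKM in knockout library 10 and listed at 0 in knockout libraries 11, 16 and 29. In wild type it was listed at 0 in libraries 10, 11 and 16 and at 0.0211 in library 29. Gzma and Gzmk were thus both highest in the same knockout library. Gzmc, which lies close to Gzmb in the chromosome 14 cluster, was listed at 0, 1.61, 0.0585 and 0.0697 FPKM in knockout libraries 10, 11, 16 and 29, against 0 throughout wild type, and knockout library 11 was also the highest for Gzmb. The 6 granzymes outside the members, Gzmd, Gzme, Gzmf, Gzmg, Gzmm and Gzmn, were all under the filter, with a summed FPKM of 0 to 0.541 in knockout and 0 to 1.10 in wild type.

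Prf1, the perforin that granzymes need to enter a target cell, was near or at 0 in most libraries. It had 4.17, 0.0359, 0.578 and 0.106 FPKM in knockout libraries 10, 11, 16 and 29, against 0, 0.551, 0 and 0.121 in wild-type libraries 10, 11, 16 and 29. Knockout library 10, the library with high Gzma and Gzmk, was the highest. In knockout library 11, where Gzmb reached 295 FPKM, Prf1 was at 0.0359.

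Nkg7, a membrane protein of lytic granules that takes part in their release, was lower in every knockout library than in any wild-type library. It had 325, 346, 41.0 and 150 FPKM in knockout libraries 10, 11, 16 and 29, against 418, 572, 471 and 501 in wild-type libraries 10, 11, 16 and 29. The means were 216 ± 146 in knockout and 491 ± 64.3 in wild type (SD, n = 4 each), with a log2 fold change of -1.58 (SE 0.57, 95% interval -2.81 to -0.34). It did not pass over all genes (limma adjusted p = 0.173), while exact permutation of the 8 genotype labels (two-sided) gave p = 0.0286, the smallest possible here. Non-overlapping groups with knockout lower were found for 11.0% of all genes tested. With median-ratio scaling the fold change was -0.97 (SE 0.33, adjusted p = 0.160), and the groups still did not overlap, with scaled levels of 97.1 to 282 in knockout and 345 to 462 in wild type, as was so with knockout lower for 6.34% of all genes. Without knockout libraries 16 and 29 it was -0.54 (SE 0.23, adjusted p = 0.287).

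Ctsw, the cathepsin W protease of NK and cytotoxic T cells, had 48.8, 71.8, 17.0 and 4.32 FPKM in knockout libraries 10, 11, 16 and 29, against 103, 93.8, 69.0 and 112 in wild-type libraries 10, 11, 16 and 29. Knockout library 11 reached just above wild-type library 16, and the other 3 knockout libraries lay below all of wild type. With median-ratio scaling the groups did not overlap, at 6.30 to 56.4 in knockout and 57.7 to 85.5 in wild type, which with knockout lower held for 6.34% of all genes. The log2 fold change was -1.95 (SE 0.66, 95% interval -3.38 to -0.53) and did not pass (limma adjusted p = 0.153). With median-ratio scaling it was -1.37 (adjusted p = 0.214). The call turned on knockout library 11, without which the fold change was -2.48 (adjusted p = 0.0434), where 5.43% of all genes were called lower. Without knockout libraries 16 and 29 it was -0.64 (SE 0.26, adjusted p = 0.277).

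Ccl5, a chemokine that draws T cells and is stored by killer lymphocytes and platelets, was the most abundant of the 9 in wild type and had the largest negative difference. It had 1365, 270.1, 151 and 56.0 FPKM in knockout libraries 10, 11, 16 and 29, against 1096, 2309, 1145 and 1512 in wild-type libraries 10, 11, 16 and 29. Knockout library 10 lay within the wild-type range, and the other 3 lay well below it. The log2 fold change was -2.61 (SE 0.74, 95% interval -4.21 to -1.01), with a limma adjusted p of 0.1005. With 1 library left out, Ccl5 was called only without knockout library 10, at -3.45 (SE 0.51, adjusted p = 0.00496). In that fit 1.44% of all genes were called lower. With median-ratio scaling the Ccl5 fold change was -1.99 (adjusted p = 0.149), and without knockout libraries 16 and 29 it was -1.25 (SE 0.57, adjusted p = 0.334). Barcode numbers in the column names form 2 stretches, called barcode runs here, and no sequencing run or batch is named there. In the second barcode run alone, which holds libraries 11 and 29, the Ccl5 fold change was -3.91 (adjusted p = 0.0192, where 0.555% of all genes were called lower), against -1.30 (adjusted p = 0.689) in the first barcode run. The difference between the barcode runs was -2.61 (SE 1.35, unadjusted p = 0.0785), with an adjusted p of 1.00.

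Srgn, the serglycin core protein that holds granzymes and other granule proteases, was high in every library. It had 623, 843, 247 and 410.0 FPKM in knockout libraries 10, 11, 16 and 29, against 453, 577, 513 and 555 in wild-type libraries 10, 11, 16 and 29. The knockout values lay on both sides of the wild-type range. The log2 fold change was -0.12 (SE 0.40, 95% interval -0.98 to 0.74, limma adjusted p = 0.856) as deposited and turned to 0.49 (SE 0.20, adjusted p = 0.211) with median-ratio scaling. On that scale knockout libraries held 539 to 662 and wild-type libraries 374 to 466, which do not overlap, as was so with knockout higher for 5.25% of all genes. By rank, Srgn stood between percentiles 99.3 and 99.6 in all 8 libraries.

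**Figure D3:**
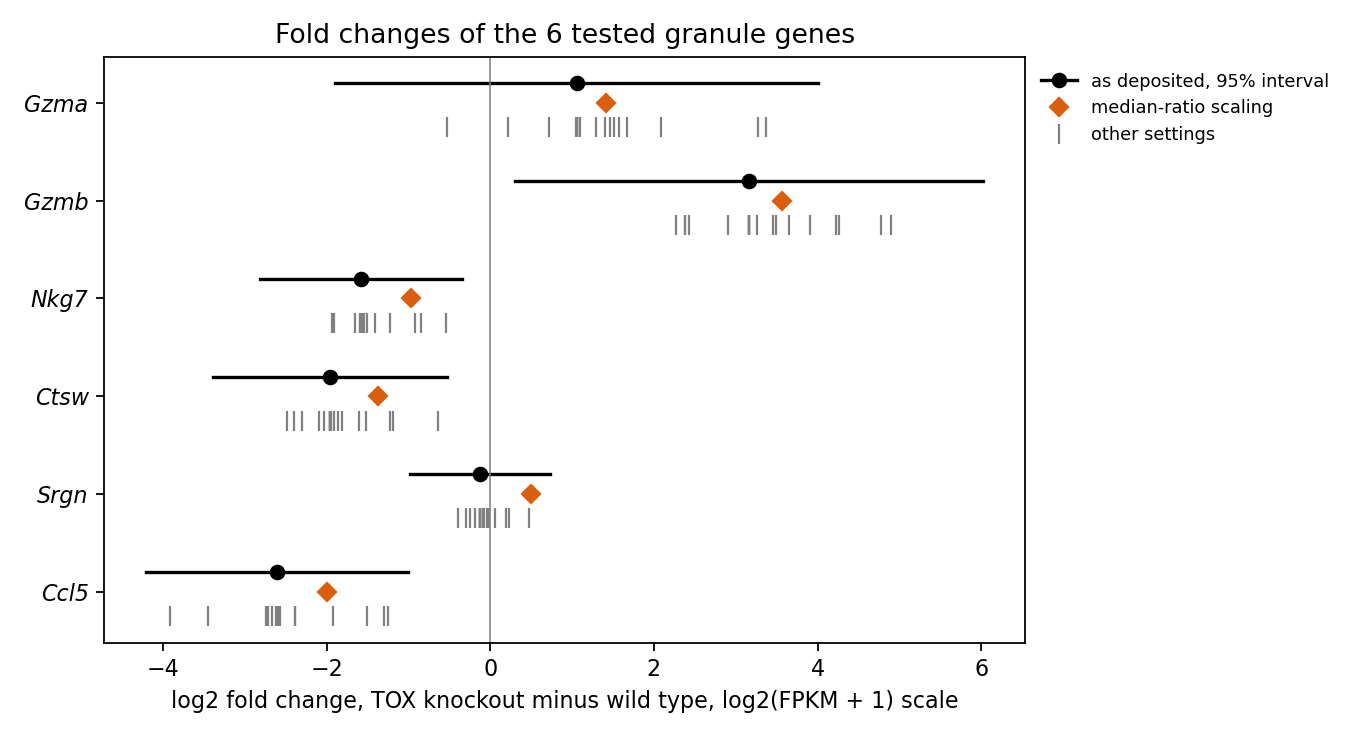
Differences in mean log2(FPKM + 1), TOX knockout over wild type (x axis), of the 6 tested granule genes (y axis). Black points are values as deposited with 95% intervals, orange diamonds use median-ratio scaling, and grey ticks are the other settings, among which Gzma and Srgn lie on both sides of 0 while Gzmb stays between 2.27 and 4.89.

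Among 9 genes of granzyme processing and inhibition, 8 were tested, 1 fell and 0 rose, and 5 had an unadjusted p under 0.05, where 20.6% of all genes did. As deposited, 1.72% of all genes tested were called lower and 0.196% higher. The gene that fell was Serpina3g, a serine protease inhibitor of lymphocytes, at 8.62 ± 5.01 FPKM in knockout and 47.3 ± 13.2 in wild type (log2 fold change -2.48, SE 0.46, adjusted p = 0.0158). With median-ratio scaling 2 members of that list rose, Cst7, an inhibitor of granule cathepsins (1.57, adjusted p = 0.0369), and Ctsh, an aminopeptidase (2.61, adjusted p = 0.0168). Serpina3g fell at that scaling too (-1.94, limma adjusted p = 0.00824), where 1.11% of all genes were lower and 0.870% higher. Ctsc, the peptidase that activates granzymes, had 20.6 and 27.4 FPKM on average in knockout and wild type and did not pass (adjusted p = 0.442).

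Of 20 genes of granule traffic and release, 19 were tested and 0 passed in limma as deposited, while 5 had an unadjusted p under 0.05, against 20.6% of all genes. The 2 with the lowest p are given here. Sytl3, a Rab27 effector, had a log2 fold change of -1.51 (adjusted p = 0.113), and Cd63, a granule membrane tetraspanin, of 1.53 (adjusted p = 0.133). With median-ratio scaling Cd63 rose (2.10, adjusted p = 0.0251), where 0.870% of all genes were called higher. Rab27a and Unc13d, which dock and prime granules for release, had fold changes of 0.06 and -0.89 (adjusted p = 0.938 and 0.282). The median of the list was -0.33 beside -0.52 for all genes.

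Transcription factors of cytotoxic lymphocytes had 2 of 11 tested members that fell and 0 that rose, at either scaling. Of all genes tested, 1.72% fell as deposited and 1.11% with median-ratio scaling. Eomes, a T-box protein needed for NK maturation, had 4.17, 0.869, 0.149 and 0.224 FPKM in knockout libraries 10, 11, 16 and 29, against 19.1, 17.5, 18.7 and 32.1 in wild type (log2 fold change -3.53, SE 0.51, adjusted p = 0.00288). Id2, which restrains E proteins and is needed for NK cells and ILCs, had 215 ± 103 in knockout and 1349 ± 267 in wild type (-2.78, SE 0.42, adjusted p = 0.00426). The other T-box factor, Tbx21, was at 1.45 and 1.34 FPKM on average in knockout and wild type (adjusted p = 0.926), and Runx3 was at 11.1 and 23.1 (-1.26, adjusted p = 0.195). Among 9 receptors for cytokines that feed the cytotoxic program 2 fell and 0 rose, namely Il2rg, the common gamma chain (-2.60, adjusted p = 0.0412), and Il12rb1, an IL-12 receptor subunit (-2.11, adjusted p = 0.0267), which did not pass with median-ratio scaling (adjusted p = 0.0996). The receptors had a median of -1.37 beside -0.52 for all genes, and 6 of the 9 had an unadjusted p under 0.05, where 20.6% of all genes did. Of these 6, Il21r was higher in knockout (0.92, limma adjusted p = 0.207) and the others were lower. Of 7 death ligands, cytokines and chemokines 6 were tested and none passed, with 0 at an unadjusted p under 0.05. The lowest p values were those of Tnf (0.82, adjusted p = 0.280) and Ifng (1.23, adjusted p = 0.287).

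Markers of other cells differed between libraries of a genotype. In knockout library 10, high in Gzma, Gzmk and Prf1, the T cell receptor chains Cd3e and Cd3g were at 7.29 and 37.9 FPKM. The NK receptor chain Klrd1 was at 228 there, against 36.4 to 170 in the other knockout libraries and 118 to 188 in wild type. In knockout library 10 Ncr1, Klra8 and Cd8a were listed at 0, and Klrb1c was at 0.105. Trat1, of the T cell list, was at 7.56 there, against 21.0 to 82.4 in wild type. Eomes and Klrk1, of the NK cell list, were at 4.17 and 3.87 there, below every wild-type library. Klre1 and Cd8b1, of the same NK cell and T cell lists, were at 9.48 and 5.73, the highest of the 8 libraries for each. Klra8 and Cd8a stayed under the filter over the 8 libraries. Knockout library 16 had Cd3g at 31.9 and Cd3d at 17.6 with Gzma at 3.10, while the other 6 libraries had Cd3g at 0.431 to 13.7.

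Summed over lists, NK cell markers (8 genes, 6 tested, 1 fell, Eomes) had sums between 50.02 and 246 in the knockout libraries, and between 158 and 219.9 in the wild-type libraries. Klrd1 made up most of each of these sums. Of all genes tested, 1.72% were called lower and 0.196% higher as deposited, and 1.11% lower and 0.870% higher with median-ratio scaling. T cell markers (7 genes, 5 tested, 1 fell, Trat1) held 9.47 to 88.6 in knockout and 39.5 to 97.5 in wild type, where Trat1 made up most of the sum. In knockout library 11, high in Gzmb, the basophil and mast cell list reached 738 FPKM, with Cpa3 at 511, Prss34 at 73.4, Mcpt8 at 59.6 and Fcer1a at 16.03, against 148 to 229 in the other knockout libraries and 74.9 to 250 in wild type. Knockout library 16, with the lowest knockout Gzmb, had Mcpt8 at 87.9, the highest of the 8 libraries, Prss34 at 60.9 and Fcer1a at 11.5. Plasmacytoid dendritic cell markers held 142 in knockout library 11, against 39.0 to 115 in the other knockout libraries and 51.3 to 68.4 in wild type, and 1 of 5 fell, Ccr9. With median-ratio scaling 1 of the basophil and mast cell list (Ms4a2) and 2 of the dendritic cell list (Siglech and Irf8) also rose. Megakaryocyte and platelet markers held 28.8 FPKM in knockout library 10, where Ccl5 was highest among knockout libraries, against 0.793 to 12.2 in the other 3 and 8.44 to 10.6 in wild type. Pf4 and Ppbp, at 15.4 and 8.40, made up most of the 28.8. Itga2b was at 3.96 there, below the 7.43 of knockout library 11, and Gp9 was listed at 0. Of this list 4 genes were tested and 0 were called at either scaling. Neutrophil markers, cells that also carry serglycin, held 11434 to 44819 in knockout and 277 to 9428 in wild type, and these sums did not overlap. S100a8 and S100a9 made up most of each of these sums. The groups did not overlap for 4 of the 10 genes, with knockout higher, as was so for 1.09% of all genes. As deposited 0 of 10 passed, while 10 of 10 were higher at an unadjusted p under 0.05, where 3.11% of all genes were higher at that level. Their median log2 fold change was 3.05, and 1, Mmp8, rose with median-ratio scaling. Monocyte, erythroid and B cell lists had 0 called genes at either scaling, with sums of 295 to 2336, 10541 to 182147 and 36.5 to 306 in knockout, against 146 to 799, 5372 to 26968 and 43.2 to 129 in wild type. The part of these cells in the granule-gene values was not tested.

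**Figure D4:**
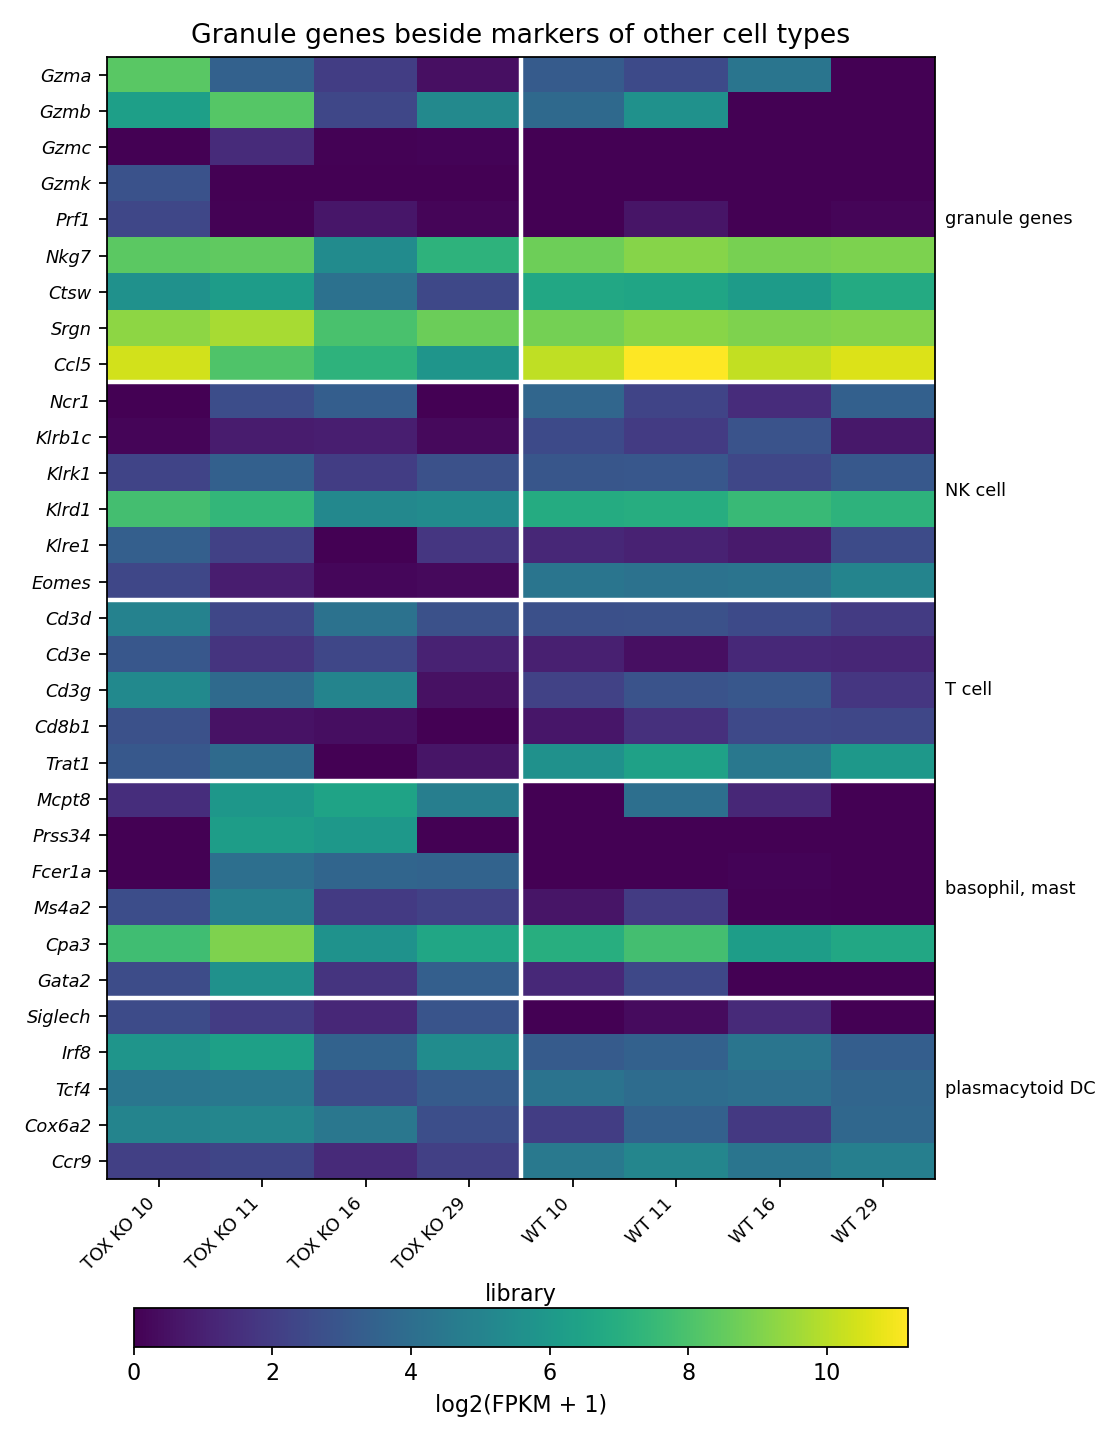
Colour gives log2(FPKM + 1) of the granule genes and of the tested NK cell, T cell, basophil and mast cell, and plasmacytoid dendritic cell (DC) markers (rows) in each library (columns, TOX knockout left of wild type). Gzma is bright in knockout library 10 beside Cd3d and Cd3g, and Gzmb in knockout library 11 beside Cpa3 and Prss34. In knockout library 16 Prss34 and Mcpt8 are also bright, while Gzmb is at 4.16 FPKM. Cd3d and Cd3g are at 17.6 and 31.9 FPKM in that library, while Gzma is at 3.10.

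Likeness to other genes was measured as the root mean square difference of log2(FPKM + 1) over the 8 libraries, after centring each gene, among 6311 named genes whose FPKM averaged 5 or more. Gzmb was closest to Ifitm1, an interferon-induced membrane protein, and Scin, an actin-severing protein, at distances of 1.16 and 1.31, where the median gene lay at 2.82. Gzma had no close match, with Hopx at 1.58 and F13a1 at 1.60 where the median was 2.39. Nkg7 was closest to Msantd2 and Bzw2 (0.16 and 0.17), Ctsw to Nmi and Smad3 (0.22 and 0.25), Srgn to Ankrd13a and Myh9 (0.10 and 0.11), and Ccl5 to Prelid2 and Mterfd3 (0.53 and 0.56).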

How the data were processed

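RNA from sorted bone marrow cells of 4 TOX knockout and 4 wild-type samples was profiled. The deposited table holds FPKM values per gene and library, which the authors made with Cufflinks on mm10, per the submitters' processing notes, with the version, aligner and annotation not given in the sources used here. Because FPKM divides by mapped reads, an abundant transcript lowers every other gene of its library. Columns were assigned to groups by the genotype in their names, and their numbers are not the replicate numbers of the titles. The barcode numbers form 2 runs, with libraries 10 and 16 in the first and 11 and 29 in the second.

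Values were used as log2(FPKM + 1). The 10693 genes whose FPKM averaged 1 or more over 8 libraries were tested with limma 3.58.1 under R 4.3.3 (moderated variances with a trend on the mean), adjusted together by Benjamini-Hochberg, and were called at an adjusted p under 0.05. The script was tested on simulated data. No counts are given, so absolute depth is unknown. Steps between low values put relative depth within a run at 0.727 and 1.45 for knockout libraries 10 and 16 against 1.00 and 0.835 for wild-type libraries 10 and 16. In the other run it was 1.13 and 0.883 for knockout libraries 11 and 29 against 1.00 and 1.27 for wild-type libraries 11 and 29. No 2 libraries held identical values. Loci were read as counted from 0, since 35.1% of 21659 matched symbols then had the GENCODE vM21 start, against 3.55% as printed. Percentiles are shares of tested genes with a lower value in the same library.

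The 9 members, the gene lists and the promoter motifs were chosen with earlier results of these data known. Genes named are the members, Tox, up to 4 called genes per list or else the 2 with the smallest p, and the 2 nearest profiles per tested member. Ctsc, Cst7, Ctsh, Rab27a, Unc13d, Tbx21, Runx3, Il21r and, among markers, Cd3d, Cd3e, Cd3g, Klrd1, Ncr1, Klra8, Pdcd1, Rora, Zbtb16, Gata3, Ms4a2, Siglech, Irf8, Mmp8, Mcpt8, Fcer1a, Klrb1c, Klre1, Cd8a, Cd8b1, Cpa3 and Prss34 were named after their values were seen. So were the markers S100a8, S100a9, Klrk1, Pf4, Ppbp, Itga2b and Gp9. Alternatives covered the pseudocount, filter, scaling, library weights, variance trend, a block for the shared column number, barcode run and left-out libraries.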

Additional observations from a re-analysis of the deposited data

Results flagged for a closer look

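Of 17 sets of 4 values with any spread (9 genes in 2 genotypes), 3 held a library far from the other 3. A set with 3 values at 0 and 1 above 0 is always flagged, however small that value, as in both Gzmk sets. The count of flags is therefore not set against a chance rate. Gzmk was at 6.03 FPKM in knockout library 10 and listed at 0 in the other knockout libraries. Gzmk was at 0.0211 in wild-type library 29 and listed at 0 in the other wild-type libraries. Gzmc was at 1.61 in knockout library 11, against at most 0.0697 in the other knockout libraries. All 3 concern genes under the filter on low values. No tested member had a fold change that differed between barcode runs past the threshold.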

How the results depend on the processing

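Over all genes, 205 were called as reported, 106 with a pseudocount of 0.1, 74 with no filter, 116 with a mean FPKM of at least 5, 728 with array weights, and 5 and 95 in the first and second barcode runs alone. With 1 library left out the count ran from 82 to 654. It was 654, 351 and 106 without knockout libraries 11, 16 and 29, and 89, 82, 123 and 87 without wild-type libraries 10, 11, 16 and 29. Granule genes called lower numbered 0 as reported, 1 in the second run alone (Ccl5) and 0 to 1 with 1 library left out (Ccl5 without knockout library 10, Ctsw without knockout library 11). Granule genes called higher numbered 0 throughout these. The shared column number was tried as a replicate block. It gave 344 called genes, 1 granule gene lower (Ccl5, adjusted p = 0.0259) and 1 higher (Gzmb, adjusted p = 0.00185), where 2.50% of all genes were lower and 0.720% higher. Same-numbered libraries deviated together for number 11 (r = 0.26 over genes) but not for 10, 16 and 29 (0.04, 0.01 and -0.02), so the libraries are treated as sharing a number and no more. Srgn changed sign to 0.49 with median-ratio scaling, 0.23 with array weights, 0.055 in the second run alone and 0.47 without knockout libraries 16 and 29. With 1 library left out Srgn ran from -0.39 to 0.20 and Gzma from -0.52 to 2.09, and Gzma was 3.27 with array weights and 3.37 without knockout libraries 16 and 29. The mean share of the 9 genes in summed FPKM differed by -0.452 percentage points (knockout minus wild type) as reported and by -0.420 without globin. Over 20 alternatives Ccl5, Ctsw and Nkg7 stayed negative and Gzmb positive. The cause of these changes was not tested. Absolute depth is unknown, so genes listed at 0 are not shown to be absent.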

Other observations

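Knockout library 11, with the highest Gzmb, also held the highest Ccl3 and Ccl4, chemokines of activated killer and myeloid cells, named here after their values were seen. Ccl4 was at 2.78, 223, 1.87 and 11.4 FPKM in knockout libraries 10, 11, 16 and 29, against 1.47, 32.1, 0 and 4.08 in wild-type libraries 10, 11, 16 and 29. Ccl3 was at 0, 117, 14.3 and 5.59 FPKM in the knockout libraries, against 4.18, 28.7, 7.80 and 8.79 in wild type. Wild-type library 11 was the highest wild-type library for Gzmb, Ccl3, Ccl4 and Ccl5. Neither Ccl4 (log2 fold change 1.54, limma adjusted p = 0.450) nor Ccl3 (-0.04, adjusted p = 0.985) passed. The ratio of Ccl5 to Srgn, a value within each library that scaling does not alter, was 2.19, 0.320, 0.610 and 0.137 in knockout libraries 10, 11, 16 and 29, against 2.42, 4.00, 2.23 and 2.73 in wild-type libraries 10, 11, 16 and 29. Knockout library 10 lay just below wild-type library 16. The ratio is a description without a test and was not set against ratios of other gene pairs.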
